A study of Oryza sativa with 8 samples.

Results

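Rice (Oryza sativa) root poly(A) RNA was compared between the 2 replicate numbers of one time label, D4, across both of its treatments. The 4 libraries are replicate 1 and replicate 2 of D4_CK, whose treatment label is normal, and of D4_100X, whose label names a 100X carbon dot (CD) treatment. Carbon dots are very small particles of carbon, here used, by the series title, to prime seeds in a study of root growth. A locus was included when its FPKM, a fragment count scaled to gene length and library total, was at least 1 in 2 or more of these 4 libraries. Members were thus chosen by their FPKM levels at D4, and the rule kept 21844 of 55801 loci. The other 4 libraries of the series, 2 each of D6_CK and D6_100X, have the same tissue and treatment labels. The labels give no cultivar, age, growth condition, harvest time or number of plants per library, do not define D4, D6 or 100X, and do not say whether equal replicate numbers share plants, a day or a batch. Replicate 1 and replicate 2 are therefore used as names only. All p-values rest on spread among these libraries, which may be technical. In the main test of the replicate differences, that spread is how far the 2 treatments disagree on the difference, within D4 and within D6. It is not the spread between libraries of equal treatment.

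The comparison itself was selected on these values, because whole-library correlations of these data had already shown the D4 libraries to group by number. The D4 replicate values are given as a description of that grouping, and the calls below rank loci by it without being independent evidence for it. The level rule itself used no difference between libraries. It took 239 loci only through the replicate 1 libraries and 216 only through those of replicate 2, and the other 21389 reached 1 FPKM in libraries of both numbers. The sign of the first 2 sets was fixed by the level rule, and they hold 23 and 35 of the loci called below. The counts behind the deposited FPKM lie on nearly 1 common distribution in all 8 libraries. The count of a locus therefore reflects its rank among the counts of its library, and the sequencing depth is unknown. The member nearest the limit was LOC_Os11g04570, whose second highest D4 value was 1.001 FPKM, and the nearest locus left out was LOC_Os06g49550, at 0.9995 FPKM.

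Roots take up water, silicon, nitrogen, phosphate, potassium and metals through transporters of the epidermis, root hairs and inner cell layers, and rice roots collect iron with secreted phytosiderophores as well as by direct uptake of ferrous iron. They also make diterpenoid phytoalexins, antimicrobial compounds whose synthesis genes lie in clusters in the rice genome, and they loosen their walls with expansins where cells elongate. Root cells also run a circadian clock, a loop of transcription factors in which LHY acts in the morning and PCL1 and PRR1 in the evening.

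Across the 21844 loci, the difference between replicate 1 and replicate 2 in D4_CK correlated with that in D4_100X at r = 0.62. The 2 differences share no library, and genes are not independent replicates. At D6 the corresponding correlation was -0.125. On the log2(FPKM + 1) scale, libraries of equal number correlated at 0.985 (replicate 1) and 0.989 (replicate 2) between the treatments at D4, above the 0.973 within D4_CK and the 0.964 within D4_100X. The median absolute difference between the replicates was 0.19 in D4_CK and 0.21 in D4_100X, against 0.12 in both D6 groups, in log2 units. The median signed difference at D4 was 0.03, a value that the common distribution of the counts tends to keep near 0.

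A total of 940 loci, 4.3% of those tested, passed the threshold for a replicate difference at D4 (limma on log2(FPKM + 1), Benjamini-Hochberg adjusted p under 0.05). Unadjusted p-values under 0.05 were found at 5649 loci (25.9%). Of the called loci, 292 (1.34%) were higher in replicate 1 and 648 (2.97%) were lower. All 940 differed in the same direction in both treatments. The test fixed this, since a locus with opposite signs in the 2 treatments could not pass it. The median log2 difference of the called loci was 0.82 for the higher and -0.97 for the lower ones, and 102 higher and 307 lower loci reached 2-fold on this scale. In D4_CK and D4_100X alike, 85 loci (0.389% of all tested) were at least 2-fold higher in replicate 1 and 245 (1.12%) at least 2-fold lower. Both replicate 1 libraries lay above both replicate 2 libraries at 7295 loci (33.4%) and below them at 5951 (27.2%). In bulk RNA, fewer cells of a type and less RNA per cell cannot be told apart.

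The number of calls rests on all 4 D4 libraries. It was 18 without D4_CK replicate 1, 33 without D4_CK replicate 2 and 0 without D4_100X replicate 1 or without D4_100X replicate 2, when 1 pair is left and the spread comes from D6 alone. It was also 0 with no filter on low values, when 34269 loci were tested. The signs say nothing about stability here, since a fit without a D4 library keeps the other treatment's pair, whose sign is known from the count above. Of the 38 called loci chosen for naming, 36 missed the threshold without D4_CK replicate 2, PCL1 and LHY being the exceptions, and all 38 missed it without any other single D4 library or with no filter.

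**Figure D1:**
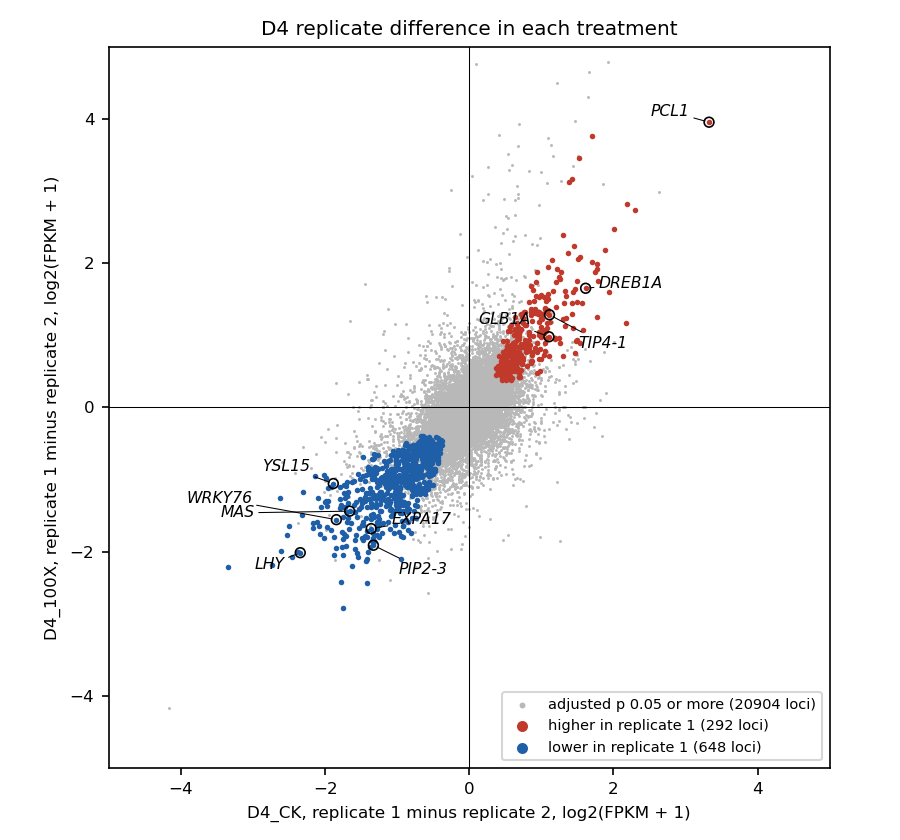
Replicate 1 minus replicate 2 on the log2(FPKM + 1) scale in D4_CK (horizontal axis) and D4_100X (vertical axis), 1 point per locus, with 292 called higher loci in red, 648 called lower loci in blue and 20904 others in grey. The cloud runs along the rising diagonal (r = 0.62 across loci), and PCL1 lies at its upper end.

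A pair of clock genes showed the clearest separation among the named loci. PCL1 (LOC_Os01g74020), a MYB-type factor of the evening loop, was at 23.8 (D4_CK) and 35.3 (D4_100X) FPKM in replicate 1 against 1.47 and 1.34 in replicate 2. Both replicate 1 libraries were far above both replicate 2 libraries, with a log2 difference of 3.64 ± 0.22 (SE, n = 2 a side; limma adjusted p = 0.0142). LHY (LOC_Os08g06110), the morning MYB-type factor, was at 4.02 (D4_CK) and 4.44 (D4_100X) FPKM in replicate 1 against 24.5 and 21.0 in replicate 2. It ran the other way in both treatments, by -2.18 ± 0.11 (limma adjusted p = 0.0142). At D6 the same genes were at 5.78 (D6_CK) and 2.94 (D6_100X) FPKM in replicate 1 against 3.81 and 3.44 in replicate 2 for PCL1 and at 21.6 and 32.8 against 21.1 and 29.2 FPKM in the same order for LHY. Both D6 differences were small beside those at D4, and LHY at D6 was near the higher of its D4 levels.

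Of the 7 clock loci, 1 was called higher and 1 lower in replicate 1, where 1.34% and 2.97% of all loci were, and the median difference was -0.15 against 0.03 over all loci. This list was drawn up after values of these data had been seen. PRR1 (LOC_Os02g40510), the evening pseudo-response regulator, was at 17.3 (D4_CK) and 17.5 (D4_100X) FPKM in replicate 1 against 12.6 and 13.3 in replicate 2, without overlap but not called (adjusted p = 0.0782). PRR73 (LOC_Os03g17570), the most abundant of the list, was at 21.9 and 25.2 against 33.8 and 31.2 FPKM in the same order (adjusted p = 0.091). PRR95, PRR37 and ELF3-1, other clock components, had differences between -0.33 and -0.12 and were not called. The labels give no hour of harvest for any library.

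Among loci that passed the level rule through both numbers, the defence lists held calls only in the lower direction. There were 4 among 5 diterpenoid phytoalexin genes, 2 among 4 WRKY factors, 1 among 5 pathogenesis-related genes and none among 14 jasmonate genes. Of all 21389 such loci, 613 were called lower and 269 higher, and 2.97% of all tested loci were called lower. Of 15 listed diterpenoid phytoalexin loci, 9 passed the level rule. CPS2, KSL7, CYP71Z7 and KSL4 passed only through the replicate 2 libraries, so the rule fixed their direction and they carry no count. The other 5, MAS, CPS4, CYP99A2, CYP99A3 and CYP76M8, all had both replicate 1 values below both replicate 2 values, a pattern that 27.2% of all loci showed. Of these 5, 4 were called lower, and their median difference was -1.49. Over the 9 loci of the list, 3 were called lower with robust eBayes and 3 with no replicate term at D6. There were also 3 with FPKM of at least 1 in 2 of all 8 libraries, and 7 on the D4 libraries alone.

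MAS (LOC_Os04g10010), the momilactone A synthase, was at 3.39 (D4_CK) and 3.32 (D4_100X) FPKM in replicate 1 against 12.9 and 10.7 in replicate 2. Its difference was -1.55 ± 0.11 (limma adjusted p = 0.0142), and the 2 numbers did not overlap. CPS4 (LOC_Os04g09900), the syn-copalyl diphosphate synthase that opens the momilactone pathway, was at 1.61 and 2.67 against 9.35 and 6.27 FPKM in the same order (-1.49 ± 0.24, adjusted p = 0.0373). The cytochrome P450 genes CYP99A2 (LOC_Os04g10160) and CYP99A3 (LOC_Os04g09920) were called lower as well, by -1.51 ± 0.28 and -1.35 ± 0.21 (adjusted p = 0.0495 and 0.036). CPS4, CYP99A3, an unnamed locus and MAS follow each other among the tested loci of chromosome 4, and all 4 were called lower. The uncalled phytocassane genes CPS2, KSL7 and CYP71Z7 had differences of -1.16 ± 0.58, -1.22 ± 0.30 and -1.30 ± 0.44 and were under 1 FPKM in both replicate 1 libraries, with CPS2 listed at 0 in D4_CK replicate 1.

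The WRKY factors WRKY76 (LOC_Os09g25060) and WRKY62 (LOC_Os09g25070), transcriptional repressors of defence in rice, followed the same direction. WRKY76 was at 2.66 (D4_CK) and 2.37 (D4_100X) FPKM in replicate 1 against 12.1 and 8.91 in replicate 2, and WRKY62 at 3.89 and 3.35 against 9.42 and 6.85 FPKM in the same order. Neither overlapped between the numbers, and the differences were -1.70 ± 0.14 and -0.97 ± 0.12 (limma adjusted p = 0.0152 and 0.0258). WRKY71, the most abundant of the 4 measured, had the opposite sign at 0.38 ± 0.10 and was not called (adjusted p = 0.0933). All 5 pathogenesis-related loci were lower without overlap, a pattern that 27.2% of all loci showed, with a median of -0.83. Of them, the chitinase gene CHT1 (LOC_Os06g51060) was called at 15.7 and 12.1 against 24.8 and 20.1 FPKM (-0.66 ± 0.09, limma adjusted p = 0.0301). PBZ1, the probenazole-inducible PR10 gene, stood at 22.2 and 24.1 against 58.8 and 37.5 FPKM (adjusted p = 0.0507), and CHT2, the most abundant of the 5, at 149.9 and 229 against 328 and 336 FPKM (adjusted p = 0.113). Of 15 jasmonate loci only the allene oxide synthase gene AOS2 (LOC_Os03g12500) was called, at 0.324 and 0.433 against 2.47 and 1.64 FPKM (-1.14 ± 0.17, adjusted p = 0.0331), but it passed the level rule only through replicate 2, and the other 14 had no call and a median of 0.11.

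Iron acquisition genes were called in the lower direction only. Of 10 measured loci, 5 were called lower and none higher, against 2.97% and 1.34% of all loci, and the median was -0.54. These calls depend on how the D6 libraries enter the fit, since none of the 5 was left with no replicate term at D6 or with the D6 numbers crossed, settings that raised the number of calls over all loci to 1725 and 1515. The nicotianamine synthase genes NAS1 (LOC_Os03g19427) and NAS2 (LOC_Os03g19420), which make the precursor of phytosiderophores, were the most abundant. NAS2 was at 197 (D4_CK) and 189 (D4_100X) FPKM in replicate 1 against 399.7 and 326 in replicate 2, and NAS1 at 205 and 219.5 against 387 and 331 FPKM in the same order. Neither overlapped between the numbers (-0.90 ± 0.10 and -0.75 ± 0.11, limma adjusted p = 0.0217 and 0.0331), and as near-identical neighbours they may share reads. NAAT1 (LOC_Os02g20360), the nicotianamine aminotransferase of the next step, was at 37.5 and 40.2 against 86.0 and 78.0 FPKM (-1.06 ± 0.15, adjusted p = 0.0309). YSL15 (LOC_Os02g43410), which carries the iron-phytosiderophore complex into the root, was at 19.9 and 37.3 against 76.4 and 78.6 FPKM (-1.47 ± 0.25, adjusted p = 0.0441), and YSL16 (LOC_Os04g45900), a nicotianamine-metal transporter, at 11.1 and 16.5 against 21.4 and 24.3 FPKM (adjusted p = 0.0466).

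The ferrous iron transporter genes IRT1 and IRT2 did not share this pattern at a level the test could call. IRT2 was at 8.21 and 7.73 against 7.41 and 6.83 FPKM in the same order of libraries (adjusted p = 0.732), so its replicate 1 values were the higher ones, and IRT1 at 1.102 and 1.19 against 1.39 and 1.71 FPKM. IDEF1, a transcription factor of the iron deficiency response, was at 8.99 and 9.32 against 7.63 and 6.73 FPKM (adjusted p = 0.149). At D6, the replicate 1 values of NAS2 were again the lower ones, at 805 (D6_CK) and 745 (D6_100X) FPKM in replicate 1 against 1366 and 1205 in replicate 2, and those of YSL15 at 64.2 and 22.2 against 107 and 64.8 FPKM. All 10 iron loci had a difference below 0 at D6, where 11232 of all 21844 loci did. Their median there was -0.50, against -0.004 over all loci, and none was called. The D4 and D6 medians of this list have the same sign.

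Among 9 metal storage and transport loci, 3 were called lower and none higher, against 2.97% and 1.34% of all loci, and the median was -0.51. The count fell to 1 with no replicate term at D6 and to 0 with the D6 numbers crossed. NRAMP5 (LOC_Os07g15370), the manganese and cadmium uptake transporter, was at 14.1 (D4_CK) and 13.5 (D4_100X) FPKM in replicate 1 against 29.6 and 28.2 in replicate 2. The 2 treatments gave nearly the same values and the numbers did not overlap (-1.02 ± 0.11, limma adjusted p = 0.0186). VIT2 (LOC_Os09g23300), a vacuolar iron transporter gene, was at 8.89 and 9.14 against 15.4 and 14.9 FPKM (adjusted p = 0.0409). ZIP9 (LOC_Os05g39540), a zinc transporter gene added to the list after values had been seen, was at 1.84 and 2.19 against 6.12 and 4.83 FPKM (adjusted p = 0.0372). The metallothionein gene MT2B, the most abundant of the list, had the opposite sign at 177 and 121 against 139.7 and 51.3 FPKM and was not called (adjusted p = 0.307).

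**Figure D2:**
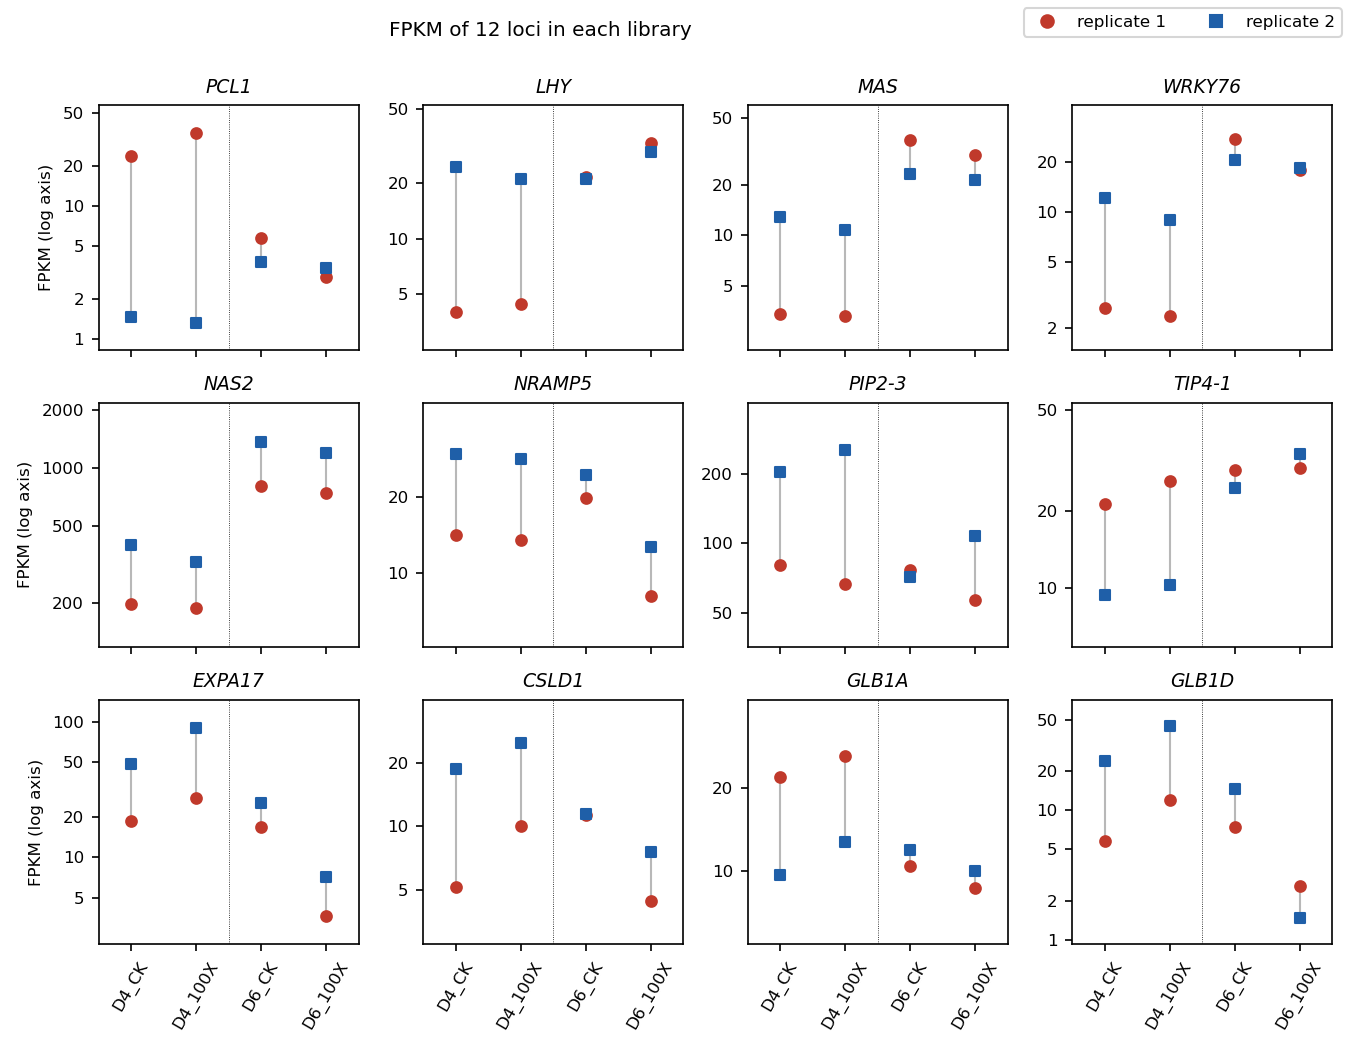
FPKM (log axis) of 12 loci in each of the 8 libraries, with replicate 1 as red circles, replicate 2 as blue squares and a grey line joining the 2 libraries of a group. In D4_CK and D4_100X the 2 numbers of each locus are apart in the same direction, whereas PCL1 and LHY, for example, lie close together in the D6 groups.

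Water and silicon channel genes had lower values in replicate 1 with 1 exception. Of 17 aquaporin and silicon transporter loci, 16 had a difference below 0, against 45.3% of all loci, and 14 lay below without overlap, against 27.2%. The median was -0.46, 4 were called lower and 1 higher, against 2.97% and 1.34% of all loci, and the summed level was 7485 and 7209 FPKM in the replicate 1 libraries of D4_CK and D4_100X against 9919.9 and 10551 in those of replicate 2. PIP2-3 (LOC_Os04g44060), a plasma membrane aquaporin gene, was at 80.5 (D4_CK) and 66.5 (D4_100X) FPKM in replicate 1 against 204 and 253 in replicate 2. Its replicate 2 values were the higher in both treatments (-1.62 ± 0.25, limma adjusted p = 0.0372). Of the other plasma membrane genes, PIP2-6 (LOC_Os04g16450) was at 194 and 162 against 296 and 358 FPKM (adjusted p = 0.037) and PIP2-2 (LOC_Os02g41860) at 168 and 149 against 253 and 318 FPKM (adjusted p = 0.0396).

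The tonoplast aquaporin genes split. TIP1-2 (LOC_Os01g74450) was at 15.5 and 13.3 against 32.9 and 31.3 FPKM, lower in replicate 1 (-1.11 ± 0.13, limma adjusted p = 0.0249). TIP4-1 (LOC_Os05g14240) was at 21.4 (D4_CK) and 26.3 (D4_100X) FPKM in replicate 1 against 9.35 and 10.2 in replicate 2, the only one of the 17 above 0 (1.199 ± 0.12, adjusted p = 0.0186). TIP1-1, the most abundant of the list, was at 1581 and 1581 against 2084 and 2199.8 FPKM and missed the threshold (adjusted p = 0.0966). NIP2-1, the silicon influx channel also known as LSI1, was at 175 and 213 against 296 and 259 FPKM (adjusted p = 0.133). At D6 the median of the 17 was -0.04, and TIP4-1 was at 29.2 (D6_CK) and 29.6 (D6_100X) FPKM in replicate 1 against 24.8 and 33.5 in replicate 2, so its numbers overlapped between the treatments there.

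A pair of cell wall genes with root hair roles were called lower in replicate 1. EXPA17 (LOC_Os06g01920), an expansin needed for root hair elongation in rice, was at 18.4 (D4_CK) and 27.5 (D4_100X) FPKM in replicate 1 against 48.8 and 90.4 in replicate 2. CSLD1 (LOC_Os10g42750), the cellulose synthase-like gene of root hairs, was at 5.13 and 10.02 against 18.8 and 24.9 FPKM in the same order. Neither overlapped between the numbers (-1.52 ± 0.12 and -1.46 ± 0.19, limma adjusted p = 0.0142 and 0.0284). Of the 16 expansins, 3 were called lower and 1 higher, against 2.97% and 1.34% of all loci, with a median of -0.22. EXPB5 (LOC_Os04g46650) was at 3.57 and 5.07 against 8.18 and 13.3 FPKM (adjusted p = 0.0258) and EXPA1 (LOC_Os04g15840) at 62.4 and 49.1 against 96.4 and 114 FPKM (adjusted p = 0.0449). EXPB3 (LOC_Os10g40720), the most abundant expansin, went the other way, at 351 (D4_CK) and 332 (D4_100X) FPKM in replicate 1 against 190.3 and 166 in replicate 2 (0.94 ± 0.08, adjusted p = 0.0155).

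CSLD1 was the only call among 8 primary wall glucan loci. CESA1, a primary wall cellulose synthase and the most abundant of them, was at 299.9 and 298 against 336 and 317 FPKM (adjusted p = 0.383). None of the 4 secondary wall cellulose loci was called. All 4 had higher values in replicate 1 without overlap, a pattern of 33.4% of all loci, with a median of 0.35. CESA7, the most abundant of these, was at 267 and 289 against 215 and 217 FPKM (adjusted p = 0.249). None of the 16 DNA replication and cell cycle loci was called either. Of these, 13 were above 0, where 11954 of all 21844 loci were, with a median of 0.16, and the mitotic kinase gene CDKB2-1 was at 61.5 and 57.5 against 48.1 and 45.8 FPKM (adjusted p = 0.0694). PCNA, the DNA polymerase clamp, was at 77.8 and 66.2 against 67.2 and 64.9 FPKM (adjusted p = 0.431). The 6 root patterning factors, SHR1 and SCR1 among them, had a median of 0.27 and no call.

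The 10 low oxygen loci included 1 called higher and 2 called lower, against 1.34% and 2.97% of all loci. GLB1A (LOC_Os03g13140), a class 1 haemoglobin gene, whose products scavenge nitric oxide, was at 21.99 (D4_CK) and 26.1 (D4_100X) FPKM in replicate 1 against 9.68 and 12.7 in replicate 2. It was higher in replicate 1 in both treatments (1.04 ± 0.09, limma adjusted p = 0.0155). Its relatives GLB1D (LOC_Os03g13160) and GLB1C (LOC_Os03g13150), which lie next to it, may share reads with each other or with it and were added to the list after values had been seen, went the other way. GLB1D was at 5.76 and 12.1 against 23.8 and 44.3 FPKM and GLB1C at 10.8 and 20.8 against 38.2 and 72.3 FPKM (adjusted p = 0.0442 and 0.0498). Both of these lower calls were lost with a pseudocount of 0.1 and with robust eBayes. The largest difference of the list rested on D4_100X replicate 1. PDC1, a pyruvate decarboxylase of ethanol fermentation, was at 4.26 (D4_CK) and 40.3 (D4_100X) FPKM in replicate 1 against 1.25 and 0.818 in replicate 2 and was not called (adjusted p = 0.0821). ADH1, the alcohol dehydrogenase, was at 90.3 and 168 against 64.7 and 48.2 FPKM in the same order, again highest in D4_100X replicate 1 (adjusted p = 0.0867). PDC2, the most abundant matched locus of this list at D4, was at 171 and 307 against 179.7 and 166 FPKM (adjusted p = 0.301).

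Several nutrient, hormone and lignin lists held 1 call each among 5 to 13 loci, against 4.3% of all loci called, and a single call says little about a list. GLN1-2 (LOC_Os03g12290), the cytosolic glutamine synthetase of ammonium assimilation, was at 55.0 (D4_CK) and 69.8 (D4_100X) FPKM in replicate 1 against 123 and 122 in replicate 2 (-0.97 ± 0.17, limma adjusted p = 0.0449). The phosphate transporter gene PHT1-8 (LOC_Os10g30790) was at 40.8 and 53.1 against 81.5 and 81.8 FPKM (adjusted p = 0.0396). GLN1-1, another cytosolic glutamine synthetase and the most abundant ammonium locus, was at 526 and 533 against 556 and 509.7 FPKM, lower in replicate 1 in D4_CK and higher in D4_100X. HAK1, a high-affinity potassium transporter gene, stood at 40.7 and 53.2 against 90.5 and 74.4 FPKM (adjusted p = 0.0837), and the 3 measured potassium and sodium loci held no call. The type-A cytokinin response regulator gene RR10 (LOC_Os12g04500) was at 20.2 and 10.3 against 32.0 and 22.2 FPKM and was the only call among 13 cytokinin loci, whose median was -0.39 (adjusted p = 0.0338). The gibberellin synthesis gene KO2 (LOC_Os06g37364), an ent-kaurene oxidase, was at 23.3 and 23.4 against 38.9 and 36.0 FPKM (adjusted p = 0.0428). The lignin pathway gene 4CL1 (LOC_Os08g14760), a 4-coumarate ligase, was at 6.20 and 9.44 against 16.9 and 19.8 FPKM (adjusted p = 0.029).

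The abscisic acid list held 1 call among 8 measured loci, in the higher direction, where 1.34% of all loci were called higher. The ethylene list also held 1, a locus whose direction the level rule fixed. DREB1A (LOC_Os09g35030), a cold and drought response factor, was at 9.64 (D4_CK) and 14.2 (D4_100X) FPKM in replicate 1 against 2.47 and 3.84 in replicate 2. The replicate 1 values were the higher ones in both treatments (1.63 ± 0.22, limma adjusted p = 0.03). All 8 measured loci of the abscisic acid and dehydration list were above 0, where 11954 of all 21844 loci were. Their median was 0.28, and DREB1A was the only call. SALT, the most abundant of them, was at 253 and 226 against 208 and 169 FPKM (adjusted p = 0.379). ACS1 (LOC_Os03g51740), a synthase of the ethylene precursor, was at 1.73 and 2.24 against 0.531 and 0.620 FPKM, the only call of 7 ethylene loci (limma adjusted p = 0.0372). However, ACS1 passed the level rule only through replicate 1, which fixed its direction. The other 6 ethylene loci had no call and a median of -0.42. The 22 auxin loci had no call and a median of 0.02, and the heat shock, reactive oxygen, flavonoid, nitrate, sucrose and strigolactone and brassinosteroid lists had none either.

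**Figure D3:**
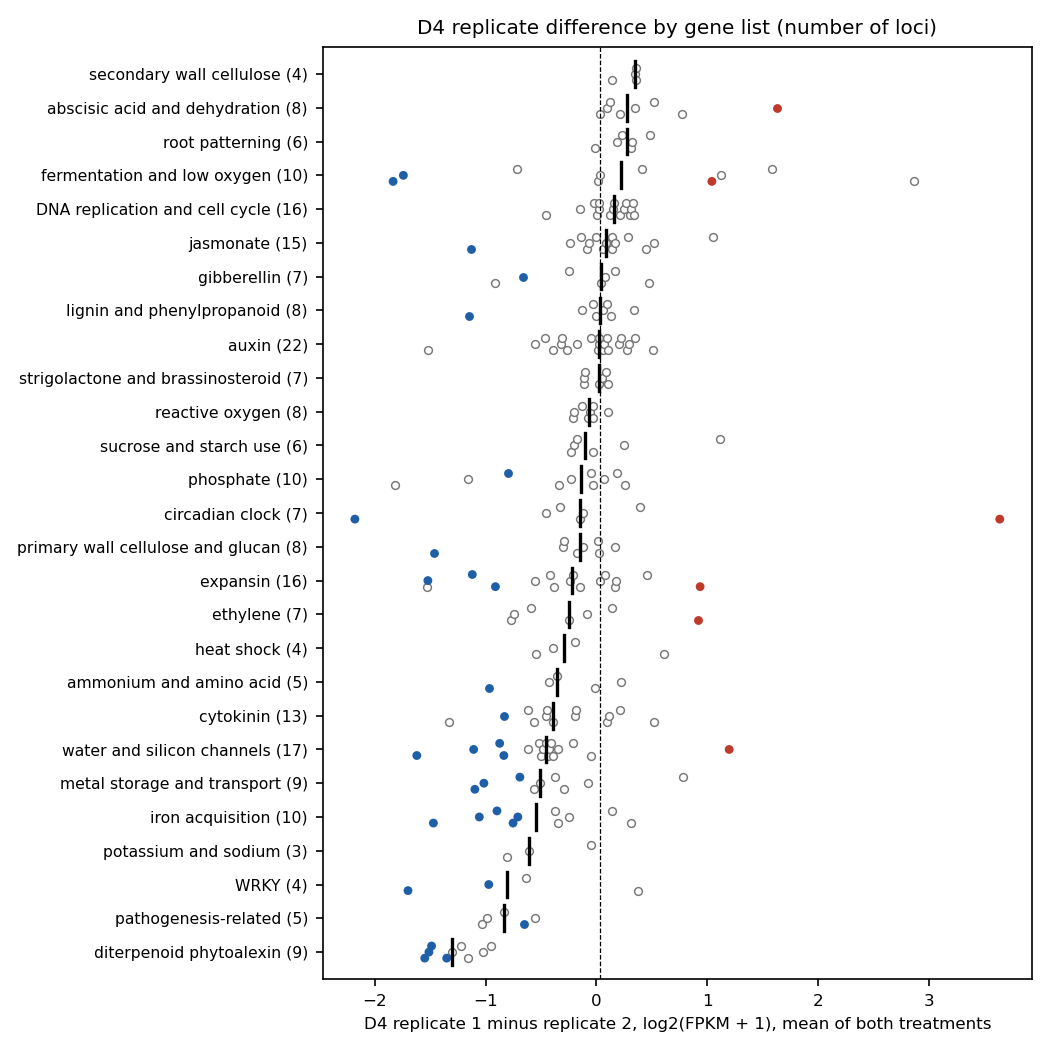
D4 replicate difference (replicate 1 minus replicate 2, log2(FPKM + 1), mean of both treatments) of each listed locus, by gene list with the number of loci in parentheses. Filled points passed the limma threshold (red higher, blue lower), open points did not, black bars are list medians and the dashed line is the median of all loci (0.03). The lists include 8 loci that passed the level rule only through 1 replicate number, 4 of them in the diterpenoid phytoalexin list, so their direction and the order of these medians are partly set by the rule.

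The tissue label was checked with markers. The 4 matched green shoot loci, 3 of them added after values had been seen, were all below the level limit, with sums of 1.52 and 1.51 FPKM in the replicate 1 libraries of D4_CK and D4_100X against 1.51 and 1.11 in those of replicate 2. The 2 seed storage loci summed to 3.04 and 2.62 FPKM in the replicate 1 libraries of D4_CK and D4_100X against 2.67 and 2.11 in those of replicate 2. Their part in the replicate difference was not tested. The root silicon channel NIP2-1 and the root auxin carrier PIN2 were present in all 4 libraries, PIN2 at 32.2 and 27.6 against 27.1 and 24.0 FPKM. ACT1, a common reference gene, was at 629.8 and 593 against 605 and 646 FPKM (adjusted p = 0.858).

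Without regard to lists, PCL1 and LOC_Os06g03520 were the called loci with the highest differences, and LOC_Os09g24370 and LOC_Os01g71380 those with the lowest. LOC_Os06g03520 was at 13.2 (D4_CK) and 55.8 (D4_100X) FPKM in replicate 1 against 3.33 and 3.16 in replicate 2. It was highest in D4_100X replicate 1 (2.74 ± 0.48, limma adjusted p = 0.0457). LOC_Os09g24370 was at 32.2 and 89.6 against 336 and 419 FPKM in the same order (-2.78 ± 0.44, adjusted p = 0.0382), and LOC_Os01g71380 at 5.84 and 8.86 against 44.4 and 44.1 FPKM (-2.46 ± 0.31, adjusted p = 0.0269). Neither of them overlapped between the numbers. LOC_Os07g03279, picked out after its values were seen, had the lowest difference of all loci at 1.47 and 9.39 against 43.4 and 186 FPKM, but its D6 values also spread widely, and it was not called (-4.17 ± 1.04, adjusted p = 0.0838). No table used here gives names for the 4 loci printed by identifier.

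Some called loci lay next to each other. Of the 940, 82 (8.72%) were followed along the chromosome by a tested locus called in the same direction. For 14 the next tested locus was called in the opposite direction. Of all tested loci, 1.34% were called higher and 2.97% lower. The 4.3% called in either direction is therefore not a like measure for neighbours of 1 direction. There were 9 runs of at least 3 called neighbours, with 37 loci in all and at most 7 in a run. Neighbouring copies of a gene may share reads. The share of loci called on each of the 12 chromosomes lay between 3.82% and 5.03%.

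Shorter genes were called more often. In the shortest of 4 equal classes of loci (70 to 1135 bases, lengths recovered from the FPKM steps) 130 were called higher and 223 lower in replicate 1, and in the longest (2444 to 13180 bases) 24 and 109. The median difference ran from 0.09 in the shortest class to 0.01 in the longest class in D4_CK, and from -0.02 to 0.06 in D4_100X, so the relation of sign and length was opposite in the 2 treatments. The part of gene length in the calls was not tested.

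The D6 libraries, which the rule did not use, were compared in the same way. No locus passed for a replicate difference at D6 (limma, 754 or 3.45% at an unadjusted p under 0.05, and also 0 with voom). Across loci the D4 and D6 replicate differences correlated at 0.02. Of the 648 loci called lower at D4, 413 were also below 0 at D6, where 11232 of all 21844 loci were. Of the 292 called higher, 149 were above 0 there. The 5 diterpenoid phytoalexin loci that passed through both numbers had a median of -1.49 at D4 and differences between 0.04 and 0.63 at D6. Among them, MAS was at 37.2 (D6_CK) and 30.0 (D6_100X) FPKM in replicate 1 against 23.1 and 21.4 in replicate 2. With the 4 loci whose D4 direction the level rule fixed, the list median at D6 was 0.56. Tested directly, the difference between the D4 and D6 replicate differences passed for no locus (3546, or 16.2%, at an unadjusted p under 0.05, and 16 with voom), so by this test no single locus can be said to split at D4 and not at D6. The D4 split was also set beside the change from D4 to D6. The D4_CK replicate difference correlated at 0.02 with D6 minus D4 in 100X, and the D4_100X replicate difference at 0.03 with D6 minus D4 in CK, pairs that share no library.

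A relation to treatment at D6 was noticed after the values had been seen and is given without a test. The D4 replicate difference correlated at 0.308 across loci with D6_100X minus D6_CK, which uses none of the D4 libraries. Of the 648 loci lower in replicate 1 at D4, 511 (78.9%) were lower in D6_100X than in D6_CK, against 54.4% of all loci, with a median of -0.36 against -0.03. In that set 77 loci (11.9%) were at least 2-fold lower in D6_100X, against 0.81% of all loci, and 2 at least 2-fold higher. Of the 292 higher loci, 108 (37%) were below 0 and 21 (7.19%) at least 2-fold higher in D6_100X, against 0.98% of all loci. EXPA17 was an example, at 16.8 and 25.0 FPKM in D6_CK and 3.68 and 7.21 in D6_100X. The relation did not hold for every list. The 9 phytoalexin loci, 4 with their D4 direction fixed by the level rule, had a median of 0.57 for D6_100X minus D6_CK with 2 below 0. The 2 below 0 were MAS (-0.20) and CYP99A2 (-0.04), both among the other 5. The 4 secondary wall loci had a median of -0.91 with all 4 below 0.

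**Figure D4:**
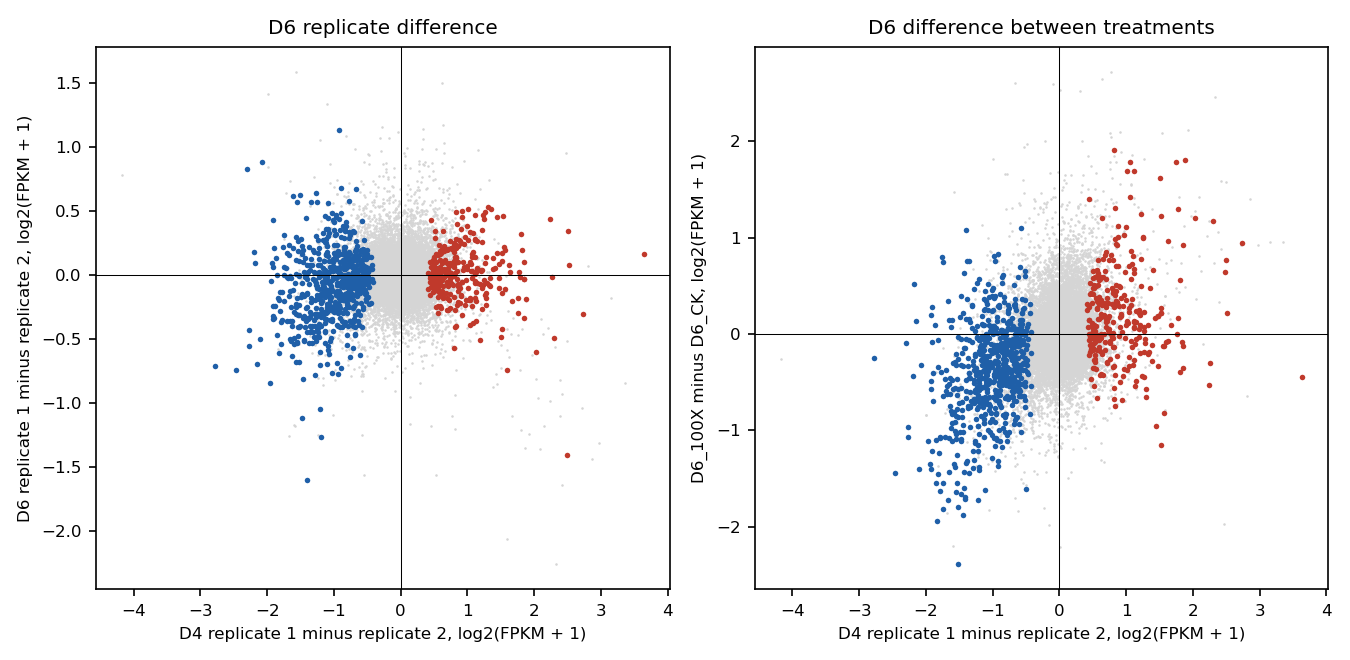
The D4 replicate difference (horizontal axes, log2(FPKM + 1)) against the D6 replicate difference (left) and against D6_100X minus D6_CK (right), 1 point per locus, with loci called higher in D4 replicate 1 in red, called lower in blue and others in grey. On the left both colours lie on either side of 0 (r = 0.02 across all loci), with 413 of the 648 blue loci below it. On the right 511 of those 648 lie below 0.

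Whether the replicate split differed between the treatments was tested locus by locus. No locus passed for a difference between the D4_CK and D4_100X replicate differences (limma, 1223 or 5.6% at an unadjusted p under 0.05, and also 0 with voom). In this fit each D4 group has its own replicate term, so the p-values measure the spread of the D6 groups only. With no filter on low values the same test gave 390 calls. With the filter, the comparison of D4_100X with D4_CK, fitted without the replicate numbers, also passed for no locus. It had 418 loci (1.91%) at an unadjusted limma p under 0.05, and voom gave 0 calls.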

How the data were processed

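The authors deposited FPKM values for 55801 loci in 8 libraries. The submitters' processing notes name featureCounts 1.6.4, SAMtools, HISAT2 and fastp, while the genome build, annotation and settings are not stated in them. Low values were whole multiples of a step in 1061 of 1115 genes (within 0.002 steps), which gave a denominator of 22.87 M in all 8 libraries and whole counts for the 34269 loci above 0, 1 count on 1 kilobase being 0.0437 FPKM. Sorted by size, these counts differed between the libraries by a median of 0.211% of their mean over the top 20000 ranks, against 48.8% for the same locus. The counts behind the deposited FPKM therefore lie on nearly 1 common distribution, a count reflects a rank within its library, and the sequencing depth is unknown. Replicate differences were tested with limma 3.58.1 (R 4.3.3, lmFit and eBayes with trend) on log2(FPKM + 1), which understates changes of low genes, in a fit of 4 group means and a replicate term within D4 and within D6 (2 residual degrees of freedom), Benjamini-Hochberg adjusted over 21844 loci at 0.05. On simulated data with 200 loci changed, 94% of 2-fold and 99% of 4-fold D4 differences were called, with 20 of 213 calls false. That simulation changed 200 loci of 21844, whereas 5649 (25.9%) had an unadjusted limma p under 0.05 in the data. Its shares may therefore not hold for these libraries. Members, lists and tests were chosen with earlier results of these data known. Of 372 listed loci, 356 were listed first and 16 added later, after values were seen, and some symbols were corrected. Names come from recalled identifiers and were used for 291 loci whose symbol lies within 0.03 chromosome lengths of the implied place in the RefSeq table of assembly ASM3414082v1, an indirect match; counts of a list cover these only. Named loci are up to 3 called per list and direction with the largest difference, the most abundant of each list described, and the 2 highest and 2 lowest called loci, with further loci given to show a list's range.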

Additional observations from a re-analysis of the deposited data

How the results depend on the processing

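The 940 calls for the D4 replicate difference became 745 with a pseudocount of 0.1, 778 with FPKM of at least 1 in 2 of all 8 libraries, 898 with a mean of at least 5, 934 with median centring, 930 with robust eBayes and 1366 on the D4 libraries alone. They became 0 with no filter on low values (6386 at an unadjusted p under 0.05), 1676 with voom on the recovered counts, of which 891 were among the 940, and 1725 with no replicate term at D6. Leaving out 1 library gave 0 to 33 calls for a D4 library and 1289 to 1310 for a D6 library. No interaction could be fitted without a D4 library.

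The difference between D4 and D6 gave 16 calls with voom and 0 to 13 with 1 library left out, and the D6 replicate difference 0 to 1. With no filter, the difference between treatments gave 390 calls and the carbon dot effect at D4 gave 2.

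Equal replicate numbers deviated together at D4 (r = 0.62) and not at D6 (-0.125), with 2 pairs each. With the replicate block at D4 and D6 the carbon dot effect at D4 gave 0 calls, 950 at an unadjusted p under 0.05, and with the block at D4 only 0 and 1086, against 418 without. With the D6 numbers crossed, chosen after seeing the data, the D4 difference gave 1515 calls and the D6 difference 1. Fits with a replicate term at both D4 and D6 have 2 residual degrees of freedom. Those with fewer replicate terms have more, so 418, 950 and 1086 are not counts at equal degrees of freedom. The cause of the changes in these counts was not tested.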
